A study of Mus musculus with 3 samples.

Results

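The genes described here encode respiratory complexes II to V, the succinate dehydrogenase, cytochrome bc1, cytochrome c oxidase and ATP synthase assemblies of the mitochondrial inner membrane, in mouse primary pre-osteoclasts. They were chosen by symbol: every gene whose symbol begins with Uqcr, with Cox and a digit from 4 to 8, or with Atp5, together with Sdha, Sdhb, Sdhc, Sdhd and Cyc1, and with a mean of at least 1 FPKM over the 3 libraries. FPKM counts sequenced fragments, divided by transcript length in kilobases and by the size of the library. Of 24067 genes in the table, 48 matched by symbol and 43 of these passed the limit, as did 10358 genes in all. The 43 were 4 genes of complex II, 9 of complex III, 13 of complex IV and 17 of complex V. By function, 40 of the 43 encode structural subunits. The other 3 are Cox7a2l, which encodes a factor that joins respiratory complexes into larger assemblies, and Atp5s and Atp5sl, whose proteins are associated with ATP synthase or with assembly of the respiratory chain and are not structural subunits of complex V.

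The respiratory chain passes electrons from NADH and succinate to oxygen and pumps protons across the inner membrane, and ATP synthase uses the returning protons to make ATP. Complex II takes electrons from succinate, complex III passes them to cytochrome c, and complex IV passes them to oxygen. Osteoclasts and their precursors are rich in mitochondria, and respiration supplies much of the energy for their differentiation.

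The study measured polyadenylated RNA in 3 libraries of wild-type or Ift88-knockdown primary cells from mouse bone, with 1 library in each group, to ask how pre-osteoclasts sense fluid flow and what Ift88, a component of the transport machinery of the primary cilium, contributes. Static cells carried a control short hairpin RNA (shRNA), and sheared cells carried either that control or an shRNA against Ift88. All cells were grown with MCSF and RANKL, with 2 days of differentiation, and orbital shear stress, flow made by swirling the dish, was applied for 24 hours. With 1 library in each group there is no replicate spread, no p-value is given, and every difference describes these libraries only. Neither the age and strain of the animals nor the number of animals pooled is given in the sources used here, and no static Ift88 shRNA group was analysed here, so whether a difference with Ift88 shRNA needs shear cannot be told apart from one that does not.

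The promoters of Uqcrfs1, Cox7a1 and Atp5s are shown because their differences with shear were among the largest, though that of Atp5s was within counting error. Cox7a2 is shown as the ubiquitous counterpart of the muscle isoform Cox7a1. Cox6a2, with the largest difference with shear, had no window, and only its ubiquitous counterpart Cox6a1 is shown. A window of Atp5j is shown because it holds several of the motifs searched. Each window runs from 250 bases before to 50 bases after a RefSeq transcript start (GRCm38.p6) and is written 5′ to 3′ on the gene's strand, with capitals marking matches to the motifs searched, on either strand. The windows are Cox6a1 at chr5:115348909-115349208 on the minus strand, Cox7a1 at chr7:30183921-30184220 on the plus strand, Cox7a2 at chr9:79759804-79760103 on the minus strand, Uqcrfs1 at chr13:30545267-30545566 on the minus strand, Atp5s (Dmac2l in RefSeq) at chr12:69724695-69724994 on the plus strand, and 1 of the 2 Atp5j windows, at chr16:84834927-84835226 on the minus strand. Cox6a1, Cox7a2 and Atp5j were added to this display after their values or motifs were seen.
Cox6a1: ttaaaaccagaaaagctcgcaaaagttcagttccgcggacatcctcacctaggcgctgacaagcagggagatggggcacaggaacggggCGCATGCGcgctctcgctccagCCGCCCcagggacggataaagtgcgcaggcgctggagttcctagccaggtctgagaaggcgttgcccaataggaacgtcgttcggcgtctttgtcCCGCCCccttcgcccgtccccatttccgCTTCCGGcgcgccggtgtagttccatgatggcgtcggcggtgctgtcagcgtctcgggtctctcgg
Cox7a1: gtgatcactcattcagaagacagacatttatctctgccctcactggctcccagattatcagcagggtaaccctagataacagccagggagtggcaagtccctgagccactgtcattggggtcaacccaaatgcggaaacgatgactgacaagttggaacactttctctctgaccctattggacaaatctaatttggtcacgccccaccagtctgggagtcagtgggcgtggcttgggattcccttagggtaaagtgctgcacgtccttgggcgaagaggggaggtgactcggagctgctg
Cox7a2: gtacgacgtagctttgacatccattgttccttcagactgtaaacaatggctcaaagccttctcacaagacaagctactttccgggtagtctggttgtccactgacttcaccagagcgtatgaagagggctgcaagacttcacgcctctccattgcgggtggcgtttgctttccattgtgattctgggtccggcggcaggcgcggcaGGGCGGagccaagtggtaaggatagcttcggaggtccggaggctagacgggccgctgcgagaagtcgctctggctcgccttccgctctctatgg
Uqcrfs1: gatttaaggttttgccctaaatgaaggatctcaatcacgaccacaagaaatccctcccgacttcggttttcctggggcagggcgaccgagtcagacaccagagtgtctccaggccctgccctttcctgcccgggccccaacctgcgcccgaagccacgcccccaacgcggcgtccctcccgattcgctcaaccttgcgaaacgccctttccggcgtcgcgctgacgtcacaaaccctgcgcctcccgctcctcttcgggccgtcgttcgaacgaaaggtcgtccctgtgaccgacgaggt
Atp5s: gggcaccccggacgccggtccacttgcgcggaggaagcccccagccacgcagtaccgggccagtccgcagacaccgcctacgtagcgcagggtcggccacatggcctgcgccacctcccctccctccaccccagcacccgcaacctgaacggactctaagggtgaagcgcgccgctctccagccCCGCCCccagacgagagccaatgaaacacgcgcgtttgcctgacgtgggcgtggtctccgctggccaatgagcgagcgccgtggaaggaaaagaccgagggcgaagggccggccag
Atp5j: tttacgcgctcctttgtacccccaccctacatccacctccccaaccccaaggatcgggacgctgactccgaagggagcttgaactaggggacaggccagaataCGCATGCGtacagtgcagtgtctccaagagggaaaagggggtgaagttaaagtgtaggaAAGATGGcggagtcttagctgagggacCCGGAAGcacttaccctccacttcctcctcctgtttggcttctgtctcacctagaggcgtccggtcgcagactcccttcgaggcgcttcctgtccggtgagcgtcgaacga

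The motifs searched were GCATGCG for NRF1, CCGGAAG for GABPA and other ETS factors, AAGATGG for YY1, GGGCGG for SP1, AAGGTCA for ERRA and TATAAA for the TATA box. NRF1 and GABPA are factors known for driving nuclear genes of the respiratory chain. RefSeq windows were at hand for 34 of the 43 genes, 38 windows in all. The genes with no window were Cox6a2, Cox4i1, Sdhc, Cyc1, Uqcrb, Uqcrq, Uqcrc2, Cox6c and Atp5a1. The NRF1 motif stood in 21.1% of these 38 windows and in 3.58% of all 32851 RefSeq windows at hand. Those windows cover 27025 genes with no limit on FPKM, so they include promoters of genes not expressed here. The ETS motif stood in 31.6% against 8.86%, and the YY1 motif in 15.8% against 6.34%. The ERRA motif was found in 13.2% of the windows against 4.72%, the SP1 motif in 31.6% against 35.7%, and the TATA box in 2.63% against 13.6%. No match overlapped a match to another motif in the 38 windows. The windows were also richer in CpG, with a median of 19.5 CpG pairs against 7 over all windows and a median GC content of 56.8% against 52.7%. Cox6a1 held the NRF1, ETS and SP1 motifs, and the Atp5j window shown held the NRF1, YY1 and ETS motifs. The other Atp5j window, not shown, held 2 matches to the SP1 motif and none to the other motifs. The Cox7a1 and Uqcrfs1 windows held none of the 6, which says only that these letters are not in those windows. A match is a description of the sequence, not a binding site.

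Depth was estimated at 34780000 to 35160000 fragments in each library from the spacing of low FPKM values, and 10304 to 10358 genes reached 1 FPKM. Ift88 was at 2.98 FPKM without shear, at 2.71 with shear and control shRNA, and at 1.197 with shear and Ift88 shRNA, a ratio of 0.442 between the sheared libraries (95% counting interval 0.356 to 0.551). Of 12 pre-osteoclast markers 9 passed the limit, Acp5 (tartrate-resistant acid phosphatase) among them at 97.7, 52.9 and 83.0 FPKM, while Calcr, Ocstamp and Oscar were below it. Of 9 macrophage markers 2 were higher and 7 lower with shear, beside 46% of all genes higher, with a median log2 difference of -0.18. With Ift88 shRNA 5 were higher, beside 53.6% of all genes. Cd68, at 1787, 1799 and 1783 FPKM, made up most of their sum of 2686, 2621 and 2649 FPKM. No lymphoid or erythroid marker passed the limit. Of 9 neutrophil markers 4 passed, with sums of 68.5, 35.2 and 37.1 FPKM over the list and Retnlg listed at 0. Of 9 stromal markers 4 passed, with sums of 10.0, 7.21 and 9.66 FPKM. In bulk RNA, fewer cells of a type and less RNA per cell cannot be told apart.

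All further triplets of FPKM are in the order static control, sheared control, sheared Ift88 shRNA. The 43 genes were among the abundant transcripts of these cells: 36 of them were in the most abundant 10% of the 10358 genes. Their summed FPKM was 8349, 8751 and 8612, which is 1.56%, 1.62% and 1.63% of each library's summed FPKM. Complex V gave 43.3% of the static sum, complex IV 37.1%, complex III 14.0% and complex II 5.56%. The median gene was at 162, 177 and 173 FPKM. Apart at 1.41 to 12.0 FPKM were 4 of the 43: the muscle-type subunit isoforms Cox6a2 and Cox7a1 and the associated genes Atp5s and Atp5sl. Among the others the lowest values were 49.4, 52.8 and 49.2 FPKM, from Uqcrfs1 in the static library and Uqcrc2 in both sheared libraries. Atp5k, a small membrane subunit of ATP synthase, was highest in the static library at 483 FPKM, and Cox4i1, a nuclear-encoded cytochrome c oxidase subunit, was highest in the sheared libraries at 532 and 545 FPKM. FPKM is uncertain for transcripts close to the length of a fragment, and 5 of the 43 (Cox7a1, Atp5k, Atp5e, Uqcr10 and Uqcr11) have a transcript of 500 bases or less.

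**Figure D1:**
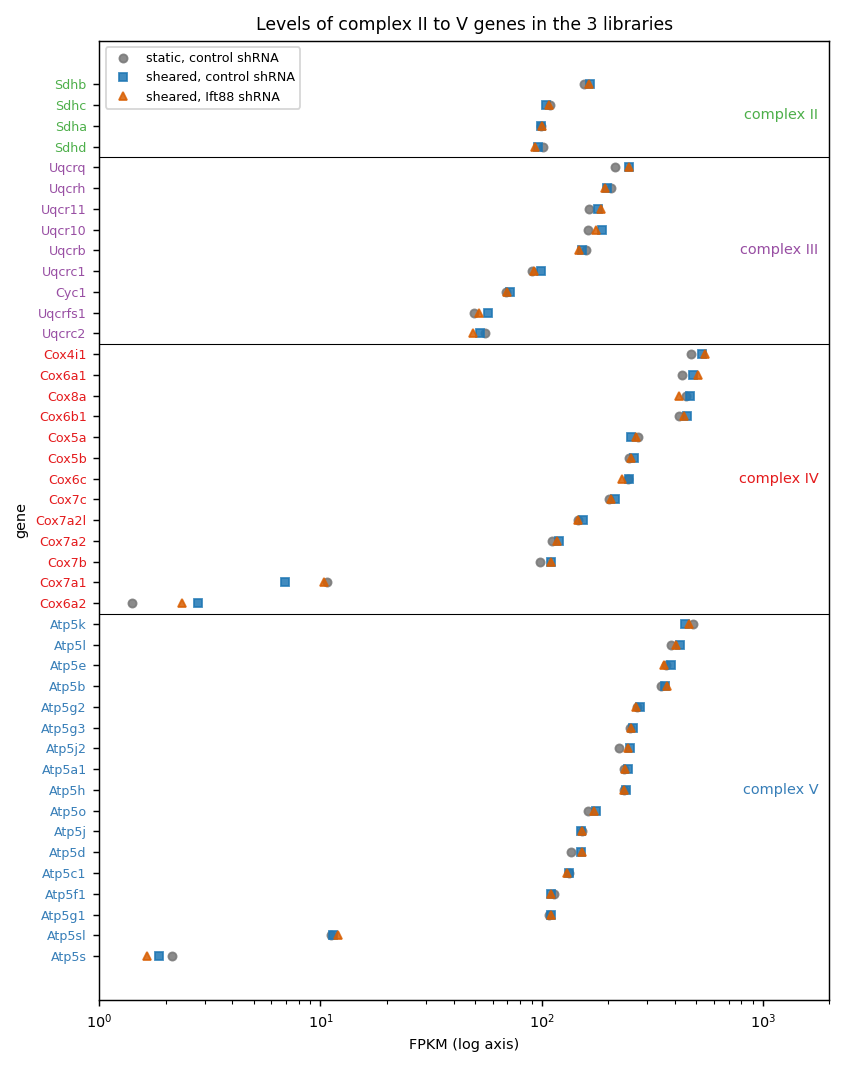
FPKM (log axis) of the 43 genes in the 3 libraries, sorted by mean FPKM within each complex; circles are the static control, squares the sheared control and triangles the sheared Ift88 shRNA library. Most points of a gene lie on top of each other between 49.2 and 545 FPKM, and Cox6a2, Cox7a1, Atp5s and Atp5sl lie apart at low levels.

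Several subunits exist as paralogs, and these cells carried the ubiquitous forms almost alone. Cox4i1 was at 472, 532 and 545 FPKM, whereas Cox4i2, the oxygen-regulated isoform, was at 0.053 FPKM in the static library and listed at 0 in the others. Cox6b1 was at 419, 453 and 441 FPKM beside 0.317, 0.442 and 0.153 FPKM for Cox6b2, the testis isoform. The germline or muscle isoforms Cox7b2, Cox8b and Cox8c were listed at 0 in all 3 libraries, whereas Cox8a was at 447, 468 and 418 FPKM. Together with Cox4i2 and Cox6b2 these are the 5 genes that matched by symbol and did not pass the limit. Cox6a1 made up at least 99.4% of the summed FPKM of Cox6a1 and Cox6a2 in each library. In the Cox7a set, Cox7a2 held 41.6%, 42.8% and 42.9% of the sum, Cox7a2l 54.4%, 54.7% and 53.3%, and the muscle isoform Cox7a1 3.98%, 2.48% and 3.80%. The c ring, the rotor of ATP synthase, is encoded by Atp5g1, Atp5g2 and Atp5g3, which give the same mature protein from different precursors. Atp5g2 held 43.1%, 43.1% and 42.3% of their sum, Atp5g3 39.8%, 39.9% and 40.2%, and Atp5g1 17.1%, 17.0% and 17.5%, so the make-up of the set was within 1 percentage point across the 3 libraries.

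With shear in control shRNA cells, most of the genes were slightly higher: 31 of 43 were higher and 12 lower, beside 46% of all 10358 genes higher. The median difference in log2(FPKM + 1), on which low genes differ by less than their ratio of FPKM, was 0.056 over the 43 and -0.011 over all genes. Differences were small: 1 gene (Cox6a2) was at least 1.2-fold higher, beside 1.94% of all genes, and 1 (Cox7a1) at least 1.2-fold lower, beside 2.26%. None was 2-fold different on this scale, beside 0.28% of all genes. Ratios of FPKM carry 95% Clopper-Pearson intervals from estimated fragments, which cover counting error only and not the variation between cultures or library preparations. Of the 38 genes with a transcript over 500 bases, 20 had an interval above 1 with shear, beside 13.9% of 10130 genes of that length, and 3 had one below 1, beside 17.9%. With library totals of FPKM set equal, the counts were 16 of 38, beside 10.9%, and 5 of 38, beside 22%. Intervals are narrower for abundant genes, so small differences leave out 1 more often among these genes than among all. The middle 50% of the 43 differences spanned 0.14 on the log2 scale, close to the 0.15 of all genes.

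Between the sheared libraries, 15 of the 43 genes were higher with Ift88 shRNA and 28 lower, beside 53.6% of all genes higher. The median difference was -0.032 over the 43 and 0.010 over all genes, but with library totals of FPKM set equal the median was 0.00062 and 22 of 43 were higher, beside 64.2% of all genes, so the direction of the median depends on the scaling. Cox7a1 was at least 1.2-fold higher, beside 3.25% of all genes, and no gene was at least 1.2-fold lower, beside 2.29%. None was 2-fold different, beside 0.145%. Of the 38 genes with an interval, 3 had one above 1, beside 18.3% of genes of that length, and 8 had one below 1, beside 13.5%. With equal library totals the counts were 6, beside 26.2%, and 3, beside 8.78%: Uqcrfs1, Uqcrc1 and Cox8a kept an interval below 1, and Uqcrc2, Cox6c, Cox7a2l, Atp5a1 and Atp5g2 did not. The middle 50% of the differences spanned 0.076, against 0.15 for all genes. This comparison and that of shear share the sheared control library, so a value high or low in that library alone gives opposite differences in them, and their values are given side by side only.

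**Figure D2:**
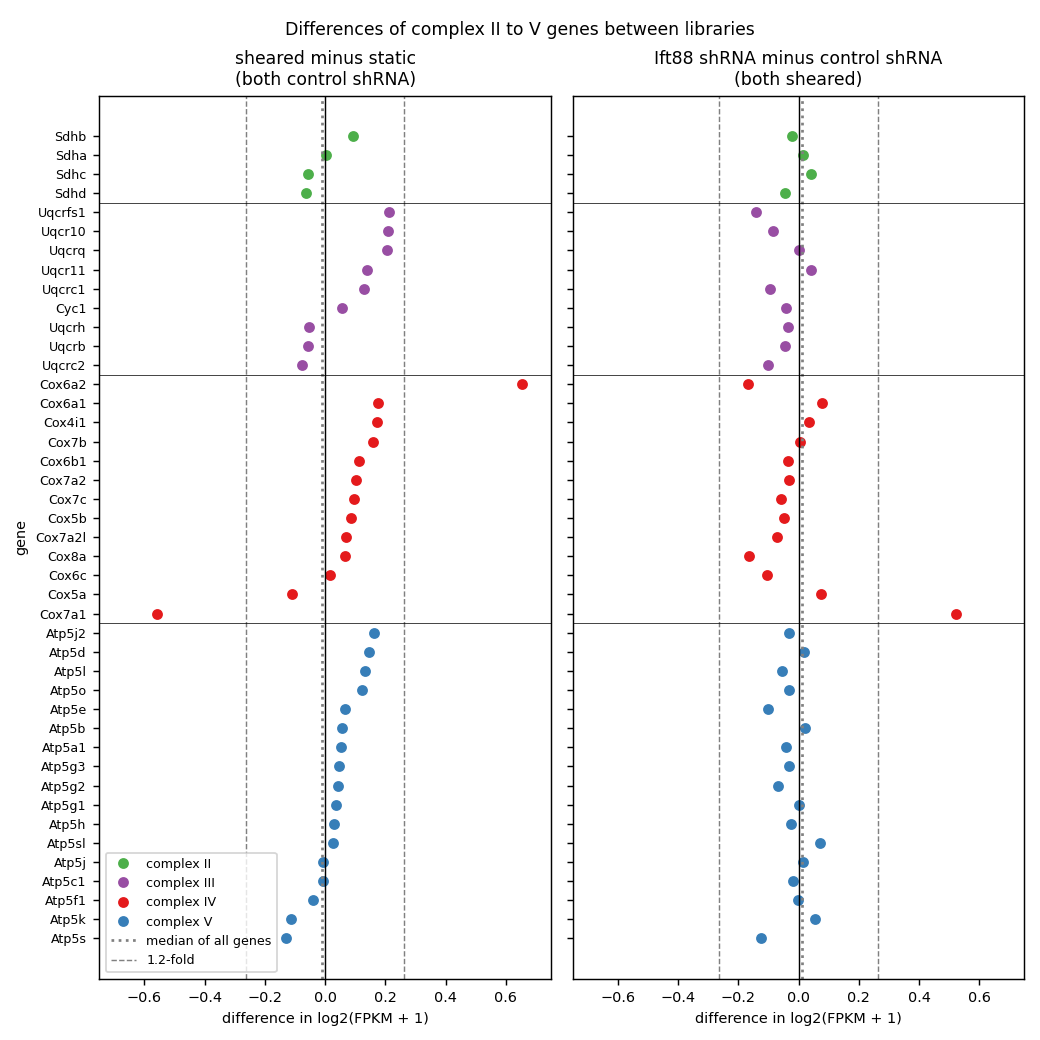
Difference in log2(FPKM + 1) of each gene with shear (left) and with Ift88 shRNA under shear (right), sorted by the shear difference within each complex; dashed lines mark 1.2-fold and the dotted line the median of all genes. With shear 31 of 43 points are above 0, with Ift88 shRNA 15 of 43 (22 with equal library totals), and only Cox6a2 and Cox7a1 pass 1.2-fold in either panel.

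Complex II was level in sum, at 465, 466 and 465 FPKM, with small differences in both directions among its subunits. The catalytic flavoprotein Sdha was at 99.5, 99.6 and 100.5 FPKM, with a ratio of 1.00 with shear (0.973 to 1.03). Sdhb, the iron-sulphur subunit, was at 155, 166 and 163 FPKM, and its ratio with shear was 1.07 (1.03 to 1.11). The static library was the lowest for Sdhb, and both sheared libraries lay close together. The membrane anchors that hold the catalytic head differed in the other direction with shear: Sdhc was at 109, 104 and 107 FPKM, with a ratio of 0.960 (0.935 to 0.986). Sdhd, the other anchor, was at 101, 96.6 and 93.6 FPKM, with a ratio of 0.956 with shear whose interval of 0.913 to 1.002 included 1 and, with equal library totals, did not (0.902 to 0.990). Between the sheared libraries, Sdhc alone of the 4 had an interval that left out 1, at a ratio of 1.03 (1.003 to 1.06), and with equal library totals Sdha did too, at 1.03 (1.003 to 1.06). Sdhc overlaps a long noncoding RNA gene in RefSeq, and the treatment of strand is not given in the sources used here.

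Complex III summed to 1168, 1246 and 1214 FPKM, and 6 of its 9 genes were higher with shear and 3 lower. The Rieske iron-sulphur protein Uqcrfs1, whose promoter is shown above, was at 49.4, 57.3 and 51.9 FPKM. The sheared control library was thus the highest, with a ratio of 1.16 with shear (1.10 to 1.23) and of 0.905 with Ift88 shRNA (0.853 to 0.960). Cyc1, the cytochrome c1 haem protein, was at 69.3, 72.0 and 70.0 FPKM, and both its intervals included 1. The core proteins, which form the matrix side of the complex, differed from each other. Uqcrc1 was at 90.4, 99.1 and 92.6 FPKM, with a ratio of 1.10 with shear (1.05 to 1.14) and 0.935 with Ift88 shRNA (0.898 to 0.972). Uqcrc2 was at 55.7, 52.8 and 49.2 FPKM, with ratios of 0.948 (0.903 to 0.996) and 0.932 (0.886 to 0.980, or 0.906 to 1.002 with equal library totals). Uqcrc2 was therefore lower in each step, while Uqcrc1 and Uqcrfs1 were highest in the sheared control library.

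Among the small subunits of complex III, Uqcrq was at 215, 248 and 248 FPKM, higher with shear by a ratio of 1.15 (1.12 to 1.19) and level between the sheared libraries at 1.00 (0.976 to 1.03). These intervals rest on a GENCODE transcript of 1521 bases; where the authors' model of Uqcrq was shorter, fewer fragments lie behind the same FPKM and the intervals are wider. Uqcr10 was at 162, 188 and 177 FPKM and Uqcr11 at 163, 180 and 185 FPKM, so both were lowest in the static library. Their transcripts are short, and their intervals are not given because the fragments of such transcripts are known only as an upper limit. Uqcrb, which lies near the ubiquinone site, was at 159, 152 and 148 FPKM, and Uqcrh, the acidic hinge protein, at 205, 198 and 193 FPKM. Both had intervals that included 1 in either step. Between the sheared Ift88 shRNA and the static library their intervals lay below 1, at ratios of 0.930 (0.872 to 0.993) and 0.940 (0.889 to 0.993). Equal library totals raise the ratios of this comparison, as the summed FPKM of the 10358 genes stood at a ratio of 0.990. Its intervals were not computed with them. Both upper limits are above that ratio, so with equal library totals both intervals would include 1.

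Complex IV summed to 3101, 3308 and 3258 FPKM. Of its 10 ubiquitous nuclear-encoded subunits 9 were higher with shear, and their summed FPKM was higher by a ratio of 1.07. Intervals lay above 1 for 8 of the 10 and below 1 for Cox5a alone. With equal library totals 5 of the 10 remained above 1, as Cox7a2, Cox7c and Cox8a then included it. Cox4i1 was at 472, 532 and 545 FPKM, with a ratio of 1.13 (1.10 to 1.16). Cox6a1 was at 429, 485 and 511 FPKM, with ratios of 1.13 with shear (1.09 to 1.17) and 1.05 with Ift88 shRNA (1.02 to 1.09), so the libraries stood in the same order for both genes. Cox7b was at 98.4, 110.0 and 110.3 FPKM, with a ratio of 1.12 with shear (1.06 to 1.18). Cox6b1, which faces the intermembrane space, had a ratio of 1.08 (1.04 to 1.12), Cox7a2 of 1.08 (1.01 to 1.15) and Cox7c of 1.07 (1.01 to 1.13). Cox5b, the zinc-binding subunit, was at 247, 263 and 254 FPKM, with a ratio of 1.06 (1.02 to 1.10). Cox5a, which binds a thyroid hormone metabolite, went the other way, at 273, 252 and 266 FPKM, with ratios of 0.926 with shear (0.887 to 0.966) and 1.05 with Ift88 shRNA (1.01 to 1.10).

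Cox8a and Cox6c were the ubiquitous complex IV subunits with an interval below 1 between the sheared libraries. Cox8a had a ratio of 1.05 with shear (1.01 to 1.09) and 0.893 with Ift88 shRNA (0.860 to 0.927), which left the Ift88 shRNA library the lowest of the 3. Cox6c was at 245, 247 and 230 FPKM, with ratios of 1.01 (0.958 to 1.07) and 0.930 (0.881 to 0.982, or 0.902 to 1.005 with equal library totals). The assembly-joining gene Cox7a2l was at 146, 153 and 146 FPKM, with ratios of 1.05 (1.01 to 1.09) and 0.951 (0.913 to 0.991), and both intervals included 1 with equal library totals. Cox7a2 overlaps Tmem30a by 2482 bases in RefSeq, which was at 36.3, 34.5 and 36.1 FPKM, so reads in the overlap could count for either gene.

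The largest differences of all 43 genes were in the muscle-type isoforms of complex IV, both at low levels. Cox7a1 was at 10.7, 6.93 and 10.4 FPKM, with a ratio of 0.649 with shear and 1.499 with Ift88 shRNA. Its level was low in the sheared control library alone, and the other 2 libraries differed by a ratio of 0.973. Its transcript of 393 bases allows at most 146, 96 and 143 fragments, so its counting intervals are at their narrowest 0.497 to 0.847 and 1.15 to 1.96. The pre-osteoclast markers Acp5 (97.7, 52.9 and 83.0 FPKM), Ctsk, the bone-degrading cathepsin K (29.4, 12.6 and 18.5 FPKM), and Mmp9, a matrix metalloproteinase (70.3, 39.3 and 85.5 FPKM), were also lowest in the sheared control library. Over that list, 7 of 9 markers were lower with shear and 8 of 9 higher with Ift88 shRNA, and its summed FPKM was 694, 590 and 685. Not all were lowest in the sheared control library. Itgb3 (5.36, 7.08 and 8.12 FPKM) and Csf1r (248, 251 and 272 FPKM) were higher in each step, though the interval of Csf1r with shear included 1. Atp6v0d2 (211, 199 and 182 FPKM) was lower in each step. The 4 stromal markers that passed the limit, at 1.63 to 2.80 FPKM, were all lower with shear and all higher with Ift88 shRNA. Among them, Runx2 had intervals that included 1 in both steps (0.666 to 1.29 and 0.750 to 1.46). These marker counts stand beside 46% of all genes higher with shear and 53.6% with Ift88 shRNA. The 4 neutrophil markers were all lower with shear and 3 of 4 higher with Ift88 shRNA. Of these 3, S100a9 and Ngp had intervals with Ift88 shRNA that included 1 (0.928 to 1.72 and 0.928 to 2.25). For S100a8 no interval was computed. Csf3r was lower with Ift88 shRNA (0.774 to 0.900). Of 9 macrophage markers 7 were lower with shear and 5 higher with Ift88 shRNA. The part of these cells in the Cox7a1 values was not tested.

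Cox6a2 was at 1.41, 2.79 and 2.38 FPKM, about 24, 49 and 41 fragments. Its ratio was 1.98 with shear (1.22 to 3.44), 0.851 with Ift88 shRNA (0.541 to 1.30) and 1.69 between the sheared Ift88 shRNA and the static library (1.002 to 2.94). The static library was low and the sheared libraries did not differ beyond counting error. Cox6a2 overlaps the integrin gene Itgad by 70 bases in RefSeq, which was at 1.11, 1.195 and 1.32 FPKM, so its value is uncertain where strand was not used. Its ubiquitous paralog Cox6a1, at 429 FPKM or more, was also higher with shear, at 1.13. Without Cox6a2 and Cox7a1, 30 of the other 41 genes were higher with shear and the differences ran from -0.13 to 0.21 on the log2 scale.

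**Figure D3:**
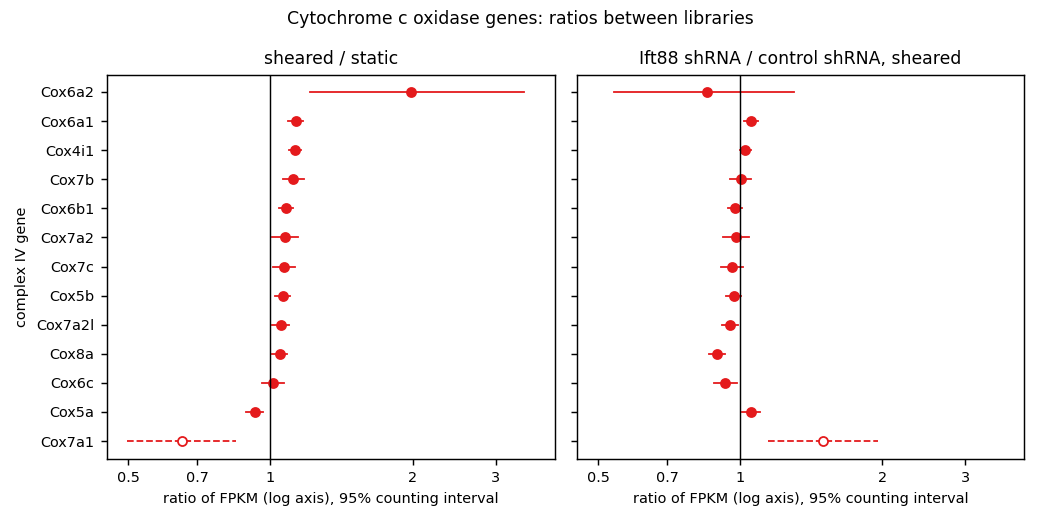
Ratio of FPKM (log axis) of the 13 complex IV genes with shear (left) and with Ift88 shRNA under shear (right), with 95% counting intervals; the open point and dashed line of Cox7a1 mark a transcript of 500 bases or less, whose interval is the narrowest possible. Most ubiquitous subunits lie just above 1 with shear, Cox5a and Cox7a1 lie below 1, and Cox6a2 has the widest interval.

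Complex V summed to 3615, 3731 and 3675 FPKM, and 12 of its 17 genes were higher with shear. In the F1 head, which makes ATP, the catalytic beta subunit Atp5b was at 348, 362 and 368 FPKM, with a ratio of 1.04 with shear (1.02 to 1.06). The alpha subunit Atp5a1 was at 237, 246 and 239 FPKM, with a ratio of 1.04 with shear (1.02 to 1.06) and 0.970 with Ift88 shRNA (0.951 to 0.990). With equal library totals the latter was 0.993 (0.973 to 1.01), which included 1. Atp5c1, the gamma shaft, was at 133, 133 and 131 FPKM and did not differ beyond counting error. The delta subunit Atp5d was at 136, 150 and 152 FPKM, with a ratio of 1.11 with shear (1.06 to 1.16) and 1.01 with Ift88 shRNA (0.968 to 1.06). Atp5e, the epsilon subunit, was at 366, 383 and 357 FPKM, without an interval because of its short transcript.

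The peripheral stalk, which holds the head still against the rotor, was level apart from Atp5o. Atp5o, the oligomycin sensitivity subunit at the top of the stalk, was at 162, 177 and 173 FPKM, with a ratio of 1.09 with shear (1.04 to 1.14). Atp5f1 was at 113, 110 and 110 FPKM, Atp5h at 236, 241 and 237 FPKM and Atp5j at 152, 151 and 152 FPKM, and the intervals of all 3 included 1 in both steps, except that of Atp5f1 with shear under equal library totals (0.924 to 0.996). Atp5j overlaps Gabpa, which encodes the DNA-binding subunit of an ETS factor, by 967 bases in RefSeq. Gabpa was at 8.21, 7.09 and 7.19 FPKM, with a ratio of 0.863 with shear (0.798 to 0.933), while Atp5j had one of 0.995 (0.945 to 1.05).

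The c-ring genes were each slightly higher with shear, by ratios of 1.03 for Atp5g1, Atp5g2 and Atp5g3, with all 3 intervals including 1. Atp5g1 was at 108, 110 and 110 FPKM, Atp5g2 at 271, 279 and 266 FPKM, and Atp5g3 at 250.3, 258 and 253 FPKM. Among the other membrane subunits, Atp5j2 was at 225, 252 and 246 FPKM, with a ratio of 1.12 with shear (1.08 to 1.16), and Atp5l at 383, 420.2 and 404 FPKM, with one of 1.10 (1.05 to 1.14). Atp5k, the most abundant complex V gene, was the exception at 483, 447 and 464 FPKM, a ratio of 0.925 with shear. Of the associated genes, Atp5s was at 2.14, 1.87 and 1.63 FPKM, lower in each step but with intervals that included 1 (0.640 to 1.17 with shear and 0.632 to 1.21 with Ift88 shRNA). Atp5sl was at 11.2, 11.4 and 12.0 FPKM, also within counting error. At 74 to 97 fragments, Atp5s could not show a difference of the size seen in the abundant subunits.

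The sheared Ift88 shRNA library against the static library differs in both shear and shRNA and shares its libraries with both other comparisons. Of the 43 genes 27 were higher and 16 lower, beside 49.8% of all genes higher, and the median difference was 0.015 against -0.0003 over all genes. This median was -0.0037 when differences were taken within 10 classes of mean FPKM, so its sign depends on that choice. Cox6a2 was the only one at least 1.2-fold higher, beside 4.79% of all genes, and none was at least 1.2-fold lower, beside 4.48%. After Cox6a2, the largest differences were 0.25 for Cox6a1, 0.21 for Uqcrq and 0.21 for Cox4i1. The smallest were -0.25 for Atp5s, -0.18 for Uqcrc2, -0.11 for Sdhd and -0.10 for Uqcrb.

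Transcript length and abundance moved with the differences over all genes, and the 43 genes are short and abundant. Their median transcript was 745 bases against 2641 over all genes with a length, and 27 of the 43 were in the shortest 10%. With shear, 63.5% of the shortest 10% of genes were higher, with a median difference of 0.050, and 23.6% of the longest 10%, with a median of -0.061. Of the most abundant 10% of genes 63.7% were higher, with a median of 0.034. With Ift88 shRNA the order was opposite, with 43.9% of the shortest 10% and 68.6% of the longest 10% higher. Taken relative to the median of their class of length (10 classes of equal size), 26 of the 43 genes were higher with shear, with a median of 0.036, and 15 of 43 with Ift88 shRNA, with a median of -0.014. On this scale about 50% of all genes are higher in either comparison, because each class is centred on its own median. The share of the 43 that was higher with shear was 72.1%. It stands beside 63.5% of the shortest 10% of genes, 63.7% of the most abundant 10% and 46% of all genes. Both classes include many of the 43. The part of length or abundance in the differences of the 43 was not tested.

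**Figure D4:**
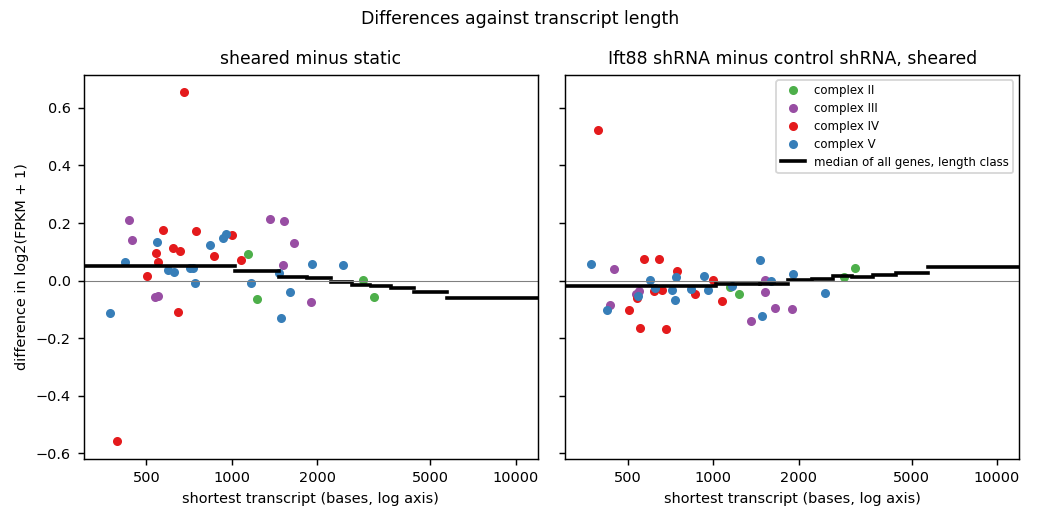
Difference in log2(FPKM + 1) of the 43 genes against the length of their shortest transcript (log axis), coloured by complex, with shear (left) and with Ift88 shRNA under shear (right); black bars are the medians of all genes in 10 classes of length. With shear the bars descend from 0.050 in the shortest to -0.061 in the longest class, and 27 of the 43 genes stand over the shortest class.

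Neighbouring parts of the same pathway were read from lists of related genes. Their counts stand beside 46% of all 10358 genes higher with shear and 53.6% with Ift88 shRNA. Of all genes, 1.94% were at least 1.2-fold higher and 2.26% lower with shear, and 3.25% and 2.29% with Ift88 shRNA. The 36 complex I subunits, which feed electrons from NADH into the chain, had 33 higher and 3 lower with shear, with a median of 0.097, and 16 higher and 20 lower with Ift88 shRNA, with a median of -0.0062. Ndufs8 was at 37.0, 49.3 and 50.1 FPKM and Ndufa5 at 46.9, 56.8 and 57.2 FPKM, both past 1.2-fold with shear. Ndufa10, at 51.9, 55.9 and 42.3 FPKM, was past 1.2-fold with Ift88 shRNA, in the other direction. Of 31 assembly factors for complexes II to V, 20 were higher and 11 lower with shear, with a median of 0.068, and 18 were higher and 13 lower with Ift88 shRNA, with a median of 0.012. Acn9, an assembly factor of complex II, was at 5.76, 4.70 and 6.77 FPKM, and Coa6, a copper factor of complex IV assembly, at 15.5, 15.6 and 12.7 FPKM; both passed 1.2-fold with Ift88 shRNA and not with shear. Pet117, an assembly factor of complex IV, was at 0.418, 2.97 and 4.57 FPKM, about 7, 53 and 81 fragments, and was the only one of the list past 1.2-fold with shear. It is uncertain, because 4306 bases of the gene overlap Kat14 (Csrp2bp in the table) in RefSeq, at 14.4, 14.2 and 15.2 FPKM. Import components had 14 of 20 higher with shear and 4 of 20 with Ift88 shRNA, and enzymes of the tricarboxylic acid cycle 10 of 17 and 9 of 17. Electron and nucleotide carriers had 8 of 12 higher with shear and 6 of 12 with Ift88 shRNA. Regulators of mitochondrial gene expression had 5 of 14 higher and 9 lower with shear, with a median of -0.021 and no gene past 1.2-fold in either comparison. Of those whose motifs were searched, Nrf1 was at 6.67, 6.75 and 6.60 FPKM and Esrra at 19.0, 19.2 and 19.8 FPKM, with intervals that included 1. Yy1 was at 26.0, 23.6 and 23.6 FPKM, with a ratio of 0.910 with shear (0.875 to 0.946), and Gabpa is given above beside Atp5j. Gabpb2, a partner of Gabpa, had a ratio of 0.886 with shear (0.824 to 0.9504) and 1.14 with Ift88 shRNA (1.06 to 1.23). Subunits encoded in the mitochondrial genome were not analysed here.

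Genes whose proteins join these complexes but whose symbols fall outside the rule were also measured. Ndufa4, a cytochrome c oxidase subunit despite its name, was at 275, 278 and 269 FPKM, with a ratio of 1.01 with shear (0.970 to 1.06). Usmg5, a small subunit of ATP synthase, was at 170, 165 and 162 FPKM, with a ratio of 0.973 (0.891 to 1.06). Atpif1, the inhibitor of ATP hydrolysis by the synthase, was at 245, 285 and 277 FPKM, with a ratio of 1.17 with shear (1.11 to 1.22). Many nuclear genes of these complexes have processed pseudogenes, so reads can be shared between a gene and its copies, and values of the short subunits are uncertain to that extent.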

How the data were processed

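Polyadenylated RNA of 3 libraries was sequenced from Illumina TruSeq libraries made from 1 ug of total RNA, per the labels' protocols. The authors deposited FPKM per gene, made with mm10, TopHat2 2.0.13, Cufflinks 2.2.1, Trimmomatic 0.32 and bcl2fastq 1.8.4, per the submitters' processing notes. Tool settings and strand use are not given in the sources used. Differences were computed as log2(FPKM + 1) for genes with a mean of at least 1 FPKM (python 3.11.15, numpy 2.4.6, pandas 2.3.3, scipy 1.17.1). Fragments were estimated from the steps between low FPKM values in genes with 1 transcript of at least 1000 bases. Of such values up to 10 fragments, 63.9% to 65.0% were whole within 0.1, so estimated fragments are approximate. The intervals treat them as counts and are approximate too, and no other count model was used. Lengths came from GENCODE M21 and may differ from the transcript models the authors used, which changes the estimated fragments and the width of intervals. Intervals were computed for transcripts over 500 bases with 1 length correction of 185 bases. Their check on simulated data drew whole counts at known depths, so it does not cover errors in estimated depth or transcript length. All 43 genes matched RefSeq by gene ID. The named genes were the catalytic and core subunits, paralog sets, extremes of level in each complex, the 4 largest and 4 smallest differences in each comparison, and at most 3 genes of each related list past 1.2-fold. Nrf1, Esrra, Yy1, Gabpa, Gabpb2, Cd68, Csf1r, Itgb3, Atp6v0d2 and Csf3r are named outside this rule, after their values were seen. Also outside it are Runx2, Calcr, Ocstamp, Oscar, Retnlg, Ndufa4, Usmg5, Atpif1, Ift88 and the genes named for an overlap. The genes, lists and rules were chosen with earlier results of these data known.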

Additional observations from a re-analysis of the deposited data

How the results depend on the processing

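The median shear difference of the 43 genes was positive under all 10 alternatives, from 0.031 to 0.067, with 25 to 33 genes higher. With equal library totals the knockdown median turned from -0.032 to 0.00062. The median of the sheared Ift88 shRNA against the static library turned to -0.0037 with centring within 10 classes of mean FPKM, and the alternatives for that comparison were chosen after seeing the data. With a mean of at least 5 FPKM, 1 gene was past 1.2-fold with shear, because Cox6a2 is below that limit. Without a limit, 2 genes were past 1.2-fold with Ift88 shRNA, because Cox6b2 then counts. Equal totals, for intervals an alternative added after seeing the data, moved the members with an interval below 1 from 3 to 5 with shear and from 8 to 3 with Ift88 shRNA, and those above 1 with Ift88 shRNA from 3 to 6. Among the 10 ubiquitous complex IV subunits, they moved those above 1 with shear from 8 to 5 and those below 1 with Ift88 shRNA from 2 to 1. Equal totals changed the sign of 2 of the 43 differences with shear and 7 with Ift88 shRNA. Centring within 10 classes of transcript length changed 5 and 2. No paired analysis was possible because each group has 1 library. Depth limits Atp5s and Cox6a2, and no value has a replicate check.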
